A study of Mus musculus with 6 samples.

Results

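The 41 genes described here encode the enzymes of glycolysis, the transporters that carry glucose in and lactate out, and a set of genes known as targets or components of the hypoxia response. They were taken by name from a fixed list, and all 41 were matched by gene symbol to a row of the deposited table, which held 24191 genes. The measurement was polyA RNA sequencing of mouse embryonic stem cells of the J1 line, with 3 libraries from wild-type (WT) cells and 3 from Mettl5 -/- (knockout) cells. METTL5 is an enzyme that methylates adenosine in the RNA of the small ribosomal subunit. Cells of both genotypes had been grown for 7 days with serum and LIF, the cytokine that holds mouse embryonic stem cells undifferentiated. The labels do not say which part of Mettl5 was altered, whether the knockout is 1 clone, whether replicates were separate cultures, or at what oxygen level the cells grew. The p-values therefore measure the spread between these libraries, which may be technical.

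Glycolysis turns glucose into pyruvate. Hexokinase traps glucose in the cell, phosphofructokinase commits it to the pathway, and lactate dehydrogenase turns the pyruvate into lactate, which leaves through monocarboxylate transporters. Hypoxia-inducible factors (HIFs) are pairs of an oxygen-regulated alpha subunit, such as HIF1A or EPAS1, and the constant partner ARNT. When oxygen is plentiful, prolyl hydroxylases of the EGLN family mark the alpha subunit for destruction by the VHL ubiquitin ligase. When oxygen is scarce, the pair binds short DNA elements and raises genes of glycolysis, mitochondrial turnover and blood vessel growth. Mouse embryonic stem cells are known for a high rate of glycolysis in normal oxygen.

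Levels below are on the authors' TPM scale, which corrects for transcript length, and are given for replicates 1, 2 and 3 in that order. Fold changes are knockout against WT on the log2(scaled reads + 1) scale, with their standard error (SE), and were tested with limma over all 24183 genes that passed a mean of 1 scaled read, with Benjamini-Hochberg adjustment and a threshold of 0.05. All 41 genes passed that filter, which used the mean over all 6 libraries. The libraries held an estimated 38540000 to 59640000 fragments each. Replicates of the 41 genes varied by a median coefficient of 3.02% (WT) and 2.96% (knockout). Mettl5 itself was at 50.3, 48.6 and 48.7 in WT and at 3.65, 3.58 and 3.32 in knockout libraries, a log2 fold change of -3.73 ± 0.0522 (SE; limma, adjusted p = 5.4e-11). The 8 embryonic stem cell markers examined were present in every library (2 higher, 5 lower). Their sums, mostly Dppa5a and Pou5f1, were 5320 to 5710 (WT) and 4910 to 5350 (knockout). Zfp42 fell from 583.5 ± 4.32 to 237.5 ± 2.59 (SD, n = 3). Sox2, Utf1, Tdgf1 and Pou5f1 had log2 fold changes of -0.58, -0.52, -0.46 and -0.09, and Sall4 and Dppa5a of 0.47 and 0.31. Any part of these shifts in the changes below was not tested. Of 12 feeder fibroblast markers, 10 were higher and 2 lower in the knockout, with sums of 16.1 to 19.0 and 36.0 to 37.6. None was at 0 in all libraries, and Lum was listed at 0 in WT replicate 3. Col1a1 rose from 0.694 ± 0.316 to 17.7 ± 0.444 and Col3a1 from 0.0979 ± 0.0331 to 3.84 ± 0.284 (SD, n = 3). The 2 lower ones were Thy1, from 13.1 ± 1.35 to 5.9 ± 0.831, and Pdgfra, from 1.56 ± 0.136 to 0.733 ± 0.0736 (SD, n = 3). The fibroblast markers therefore differed between the genotypes in both directions, and their part in the changes below was not tested. Of 6 blood cell markers found, 2 were higher and 3 lower (sums 14.3 to 16.2 and 14.8 to 15.9). Of 4 endothelial markers, Kdr was higher and Pecam1, which made up most of the sums, lower (sums 30.1 to 32.7 and 12.6 to 13.3). In bulk RNA, fewer cells that express a gene and less RNA per cell cannot be told apart.

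Knockout cells had less RNA of hexokinases, of the phosphofructokinase gene Pfkp, of Pdk1 and of many hypoxia targets, and more RNA of the glucose transporter gene Slc2a3 and of the regulatory gene Pfkfb3. Of the 41 genes, 27 were lower and 11 higher (65.9% and 26.8%), against 28.9% lower and 33.6% higher among all genes tested (limma). Most genes of the table passed, 62.6% counting both directions, so a second test asked whether a change was larger than 1.5 fold (limma treat). By that test 13 of the 41 genes were lower (31.7%) and 2 higher (4.88%), against 9.01% and 11.9% of all genes (20.9% together). The 13 were Hk1, Hk2, Pfkp, Aldoc, Ldhb, Pdk1, Slc16a3, Epas1, Egln3, Bnip3, Ankrd37, Vegfa and Ndrg1, and the 2 were Pfkfb3 and Slc2a3. The median log2 fold change of the 41 genes was -0.28, and that of all genes tested was 0.00. On scaled reads the 2 genotypes did not overlap for 38 of the 41 genes (92.7%), against 67.8% of all genes. On the TPM scale they did not overlap for 37, against 68.1%. The 41 genes are mostly abundant, and among all 10412 genes with a mean of at least 5 on the TPM scale 31.6% were lower and 46.4% higher (6.91% and 11.5% by the test against 1.5 fold). Rescaling every library to the same total, a shift of the overall median to -0.15, left 31 of the 41 genes lower and 7 higher (37.8% and 26.1% of all genes), with a median of -0.44. By role, the genes from hexokinase to the triose phosphates were mostly lower (8 of 9), as were the lactate dehydrogenases with Pdk1 (3 of 3) and the hypoxia targets outside mitochondria (7 of 8), while Pfkfb2, Pfkfb3 and Pfkfb4 were higher.

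**Figure D1:**
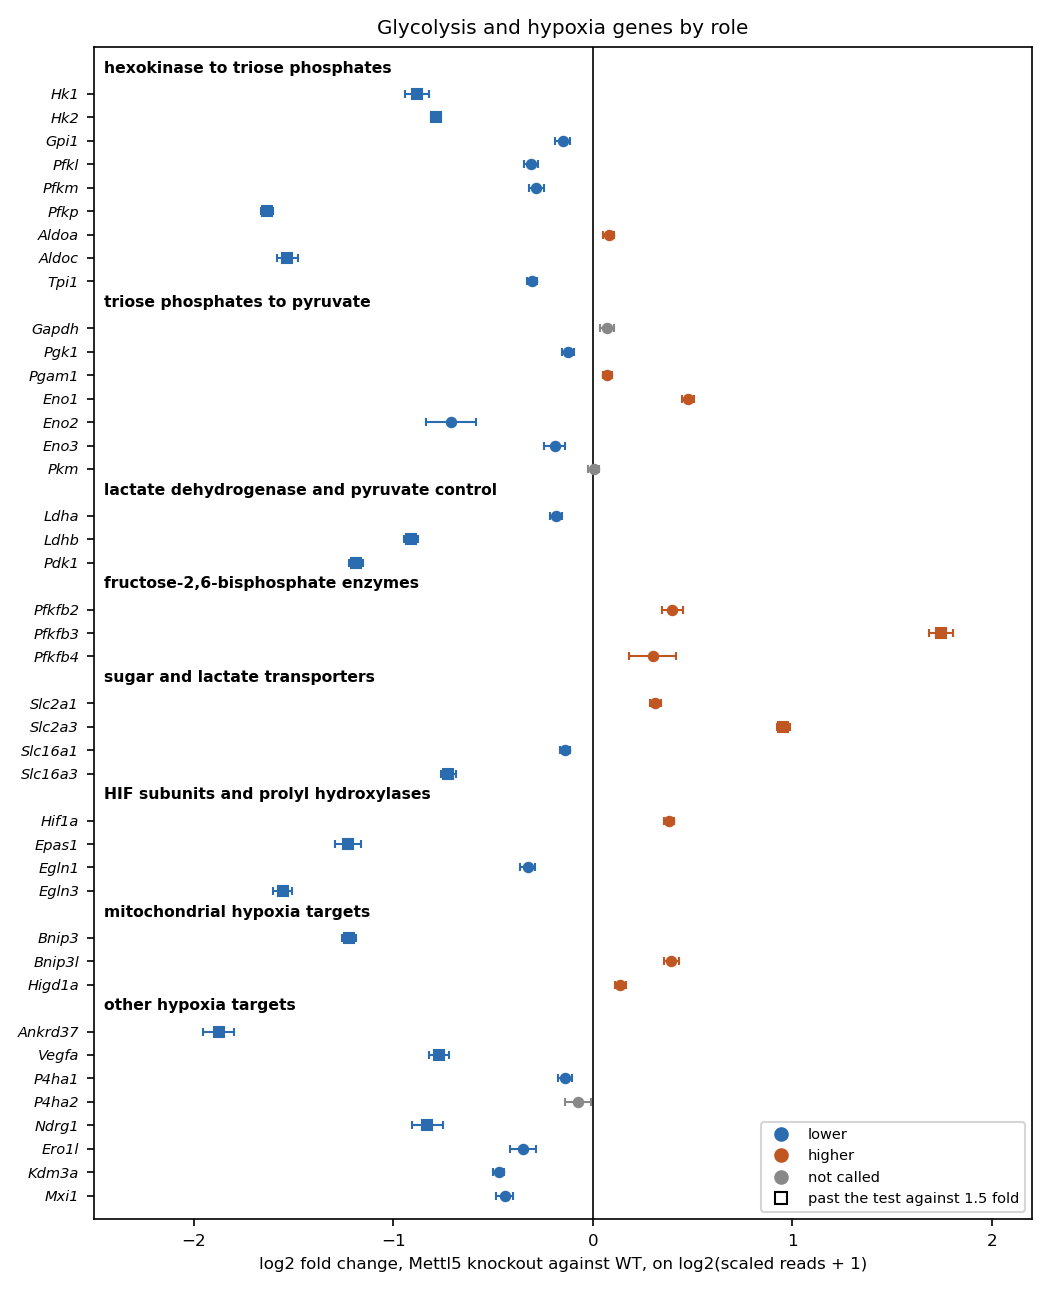
Log2 fold change of each of the 41 genes, knockout against WT, with its SE (bars, 3 libraries per genotype), grouped by role. Blue points are lower, orange higher and grey not called at an adjusted p of 0.05, and squares passed the test against 1.5 fold, from Ankrd37 at -1.87 to Pfkfb3 at 1.74.

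HIFs bind a core of 5 bases, spelled ACGTG or GCGTG, on either strand. The 4 sequences below come from RefSeq on GRCm38.p6 (the assembly also called mm10) and are shown because these genes are known HIF targets that passed the test against 1.5 fold in both directions: Ankrd37, Bnip3 and Hk2 were lower and Pfkfb3 higher. They were chosen after their values were seen. Each is the part of the 250 bases before a transcription start that lies outside every annotated exon, 5′ to 3′ on the gene's strand, with both cores in capitals. For Pfkfb3, which has 2 starts in that table, the downstream start is shown.
Ankrd37, chr8:45999868-46000100, minus strand: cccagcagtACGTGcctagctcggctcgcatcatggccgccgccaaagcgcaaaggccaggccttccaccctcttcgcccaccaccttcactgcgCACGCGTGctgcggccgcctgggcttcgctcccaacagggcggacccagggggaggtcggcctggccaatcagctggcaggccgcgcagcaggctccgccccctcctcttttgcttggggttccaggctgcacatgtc
Bnip3, chr7:138909520-138909756, minus strand: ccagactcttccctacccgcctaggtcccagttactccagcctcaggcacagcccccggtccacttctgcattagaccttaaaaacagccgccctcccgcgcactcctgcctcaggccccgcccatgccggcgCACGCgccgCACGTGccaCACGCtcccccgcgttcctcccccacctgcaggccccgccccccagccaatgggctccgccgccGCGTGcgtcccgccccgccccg
Hk2, chr6:82774455-82774704, minus strand: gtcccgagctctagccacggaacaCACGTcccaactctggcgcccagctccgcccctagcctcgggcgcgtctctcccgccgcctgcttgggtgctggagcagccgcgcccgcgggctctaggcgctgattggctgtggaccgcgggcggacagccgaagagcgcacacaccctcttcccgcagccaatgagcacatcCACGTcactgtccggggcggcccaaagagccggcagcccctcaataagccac
Pfkfb3, chr2:11502102-11502340, minus strand: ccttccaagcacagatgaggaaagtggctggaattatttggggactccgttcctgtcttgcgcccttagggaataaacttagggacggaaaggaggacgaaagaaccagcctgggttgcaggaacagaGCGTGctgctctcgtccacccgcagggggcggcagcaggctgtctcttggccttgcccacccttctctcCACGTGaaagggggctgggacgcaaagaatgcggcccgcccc
The Ankrd37 stretch held 1 ACGTG and 2 GCGTG, Bnip3 held 2 and 3, Hk2 held 2 and 0, and Pfkfb3 held 2 and 1, counting both strands, where CACGTG counts once on each strand. The upstream start of Pfkfb3 had an exon-free stretch of 102 bases with neither core. Egln3, a HIF target also lower by the test against 1.5 fold, had only 1 core, an ACGTG, in its 250 bases and is not shown. The stretches shown thus held more cores than those of Egln3 and the upstream Pfkfb3 start and are examples only. Among the stretches shown, that of the gene that rose and those of the genes that fell all held ACGTG. RefSeq windows were found for 37 of the 41 genes (Ero1l under its symbol Ero1a), with 57 windows in all. In the 250 bases before the start, 47.4% of these windows held ACGTG and 78.9% either core, against 16.6% and 38.6% of all 32851 windows. The windows of the 41 genes were also richer in G and C (median 60.4% against 52.4%) and in CG pairs (median 14 against 6), and both cores contain a CG pair. Counted by gene, where any window of a gene sufficed, 18.5% of all 27025 genes with a window held ACGTG. Of the members with a window, 14 of 25 that were lower and 6 of 9 that were higher held it. A match of letters is a description and not a binding site.

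At the first step of glycolysis both hexokinase genes fell. Hk2, the inducible hexokinase that can sit on the mitochondrial surface (mm10 chromosome 6, 82725025 to 82774454), was at 67.7, 69.1 and 67.5 in WT and at 38.5, 37.9 and 37.7 in knockout libraries. Knockout and WT differed by -0.79 ± 0.0263 on the log2 scale (SE; limma, adjusted p = 1.12e-08). Hk1, the constitutive hexokinase of many tissues, was at 14.5, 14.6 and 14.5 in WT and at 7.47, 7.66 and 7.21 in knockout libraries (log2 fold change -0.88, SE 0.0594). Every knockout library lay below every WT library for both genes, and Hk2 made up 82.4% ± 0.0993 of the summed hexokinase level in WT and 83.6% ± 0.392 in the knockout (SD, n = 3). The sum of both went from 82.6 ± 0.919 to 45.5 ± 0.527 (SD, n = 3), which is 55.0% of the WT level. Gpi1, which turns glucose 6-phosphate into fructose 6-phosphate, was at 326, 335 and 318 in WT and at 270.3, 296 and 272 in knockout libraries, a smaller fall of 0.15 on the log2 scale that was not called without the intensity trend (limma, adjusted p = 0.0566).

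All 3 phosphofructokinase genes fell, by unequal amounts. Pfkp, the platelet-type subunit (mm10 chromosome 13, 6579768 to 6648777), was at 116, 113 and 115 in WT and at 34.3, 35.7 and 35.7 in knockout libraries. Its log2 fold change of -1.63 ± 0.0309 (SE; limma, adjusted p = 3.44e-10) was the largest fall among the glycolytic enzymes here, and WT and knockout libraries were far apart. The liver-type gene Pfkl fell by 0.31 and the muscle-type gene Pfkm by 0.28. Because of these unequal falls the mix of subunit RNAs shifted: Pfkp made up 51.5% ± 0.425 of the summed level in WT and 29.7% ± 1.09 in the knockout, while Pfkl went from 38.6% ± 0.40 to 55.5% ± 0.939 (SD, n = 3). The summed level went from 223 ± 3.51 to 119 ± 1.69 (SD, n = 3). The WT and knockout shares did not overlap, although an exact permutation test of 3 against 3 libraries cannot go below a p of 0.10. Pfkp and Pfkm overlap genes on the opposite strand, Pitrm1 and Senp1. Pitrm1 was at 73.3 ± 2.31 and 73.3 ± 3.62 (SD, n = 3) and did not pass the threshold, and Senp1 was higher by 0.15.

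Of the aldolases, the rarer gene fell. Aldoc, the aldolase best known from brain, was at 31.5, 29.9 and 31.7 in WT and at 10.5, 9.73 and 10.4 in knockout libraries (-1.53 ± 0.0518 on the log2 scale, SE; limma, adjusted p = 1.2e-08). Aldoa, the main aldolase of most cells, was at 854, 809 and 838 in WT and at 845, 833 and 844 in knockout libraries, and these ranges overlapped. Its log2 fold change of 0.08 passed the threshold (limma, adjusted p = 0.0252) but not without knockout replicate 1 (0.0624) or 3 (0.0879). It turned to -0.08 with equal totals and to -0.13 when values were centred per chromosome. Chromosome centring took from each value its library's median log2 level over all tested genes of the gene's chromosome. This can shift a gene by more than its chromosome's median log2 fold change, which was 0.03 for chromosome 7, that of Aldoa. A second table row with the symbol Aldoa, upstream of the main one, was at 1.88 ± 0.0229 and 1.58 ± 0.033 (SD, n = 3) and is not counted here. Tpi1, triose phosphate isomerase, was at 792, 763 and 785 in WT and at 605, 594 and 601 in knockout libraries. That fall of 0.30 on the log2 scale was close to the median of its chromosome, 6, and was no longer called after chromosome centring (-0.04).

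The steps from triose phosphates to pyruvate changed little, apart from the enolases. Gapdh, the most abundant of the 41 RNAs, was at 5553, 5172 and 5543 in WT and at 5258, 5384 and 5463 in knockout libraries. The ranges overlapped and the log2 fold change of 0.07 was not called (limma, adjusted p = 0.117). Centred on its chromosome, 6, Gapdh was called higher (0.34). Pkm, pyruvate kinase, was at 2713, 2555 and 2682 and at 2551, 2518 and 2509, with a log2 fold change of 0.00 that became -0.15 and was called with equal totals. Pgam1, phosphoglycerate mutase, was at 588, 575 and 578 and at 601, 580.5 and 583. Its log2 fold change of 0.07 was called, but not without WT replicate 3 (limma, adjusted p = 0.0766) or knockout replicate 1 (0.0854) or 3 (0.0603). It turned to -0.08 with equal totals and -0.15 with chromosome centring, where the median log2 fold change of its chromosome, 19, was 0.09. Pgk1, phosphoglycerate kinase, was at 637, 620 and 612 in WT and at 574, 533 and 545 in knockout libraries, a fall of 0.12 on the log2 scale that was not called without the intensity trend (limma, adjusted p = 0.0683). Of copies of the 41 genes listed under the parent symbol with a suffix there were 2, Pgk1-rs7 and the Eno1 copy described next. Pgk1-rs7 was at 0.694 ± 0.663 and 1.57 ± 0.732 (SD, n = 3), far below Pgk1.

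Eno1, the main enolase, was the only gene of this stretch that rose under each scaling tried. It was at 991, 927 and 932 in WT and at 1265, 1220.0 and 1259 in knockout libraries (0.48 ± 0.0294 on the log2 scale, SE; limma, adjusted p = 6.35e-07). Eno1b, an Eno1 retrogene on chromosome 18, was listed at 1033 ± 34.2 in WT and 1396 ± 15.4 in the knockout (SD, n = 3). These levels are close to those of Eno1, so the split between the copies is uncertain. The sum of Eno1, Eno1b, Eno2 and Eno3 went from 2031 ± 67.6 to 2682 ± 41.2 (SD, n = 3). The tissue-restricted enolases went the other way. Eno2, the neuronal enolase, was at 6.496, 6.83 and 8.38 in WT and at 4.56, 3.67 and 4.32 in knockout libraries (log2 fold change -0.71, SE 0.124). Eno3, the muscle enolase on chromosome 11, fell by 0.19 on the log2 scale, which turned to 0.18 with chromosome centring.

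At the fate of pyruvate, both lactate dehydrogenase genes and Pdk1 fell. Ldha, the main subunit, was at 1708, 1655 and 1648 in WT and at 1455, 1354 and 1385 in knockout libraries, a log2 fold change of -0.18 ± 0.0296 (SE; limma, adjusted p = 0.000451). Ldhb, the heart-type subunit, was at 356, 338 and 364 in WT and at 182, 176 and 178 in knockout libraries, a log2 fold change of -0.91 (SE 0.0338). The 2 genotypes did not overlap for either gene. Ldhb therefore went from 17.4% ± 0.592 to 11.3% ± 0.193 of the summed lactate dehydrogenase level (SD, n = 3). Pdk1, a kinase that inhibits pyruvate dehydrogenase, was at 237, 237 and 250.3 in WT and at 97.4, 104 and 102 in knockout libraries. Knockout and WT differed by -1.19 ± 0.0369 on the log2 scale (SE; limma, adjusted p = 7.24e-09). Over all 18 glycolytic enzymes and lactate dehydrogenases, 13 were lower (72.2%) and 3 higher (16.7%), against 28.9% and 33.6% of all genes tested and 31.6% and 46.4% of those with a mean of at least 5 on the TPM scale. Their share of the summed TPM scale went from 1.497% ± 0.0477 to 1.35% ± 0.00927 (SD, n = 3). The share divides by each library's own total, which was 969838 to 978167 (WT) and 1019930 to 1022470 (knockout). It therefore depends on that total, as scaling to equal totals does. Eno1b, whose level on the TPM scale was higher in the knockout, is not counted in it.

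**Figure D2:**
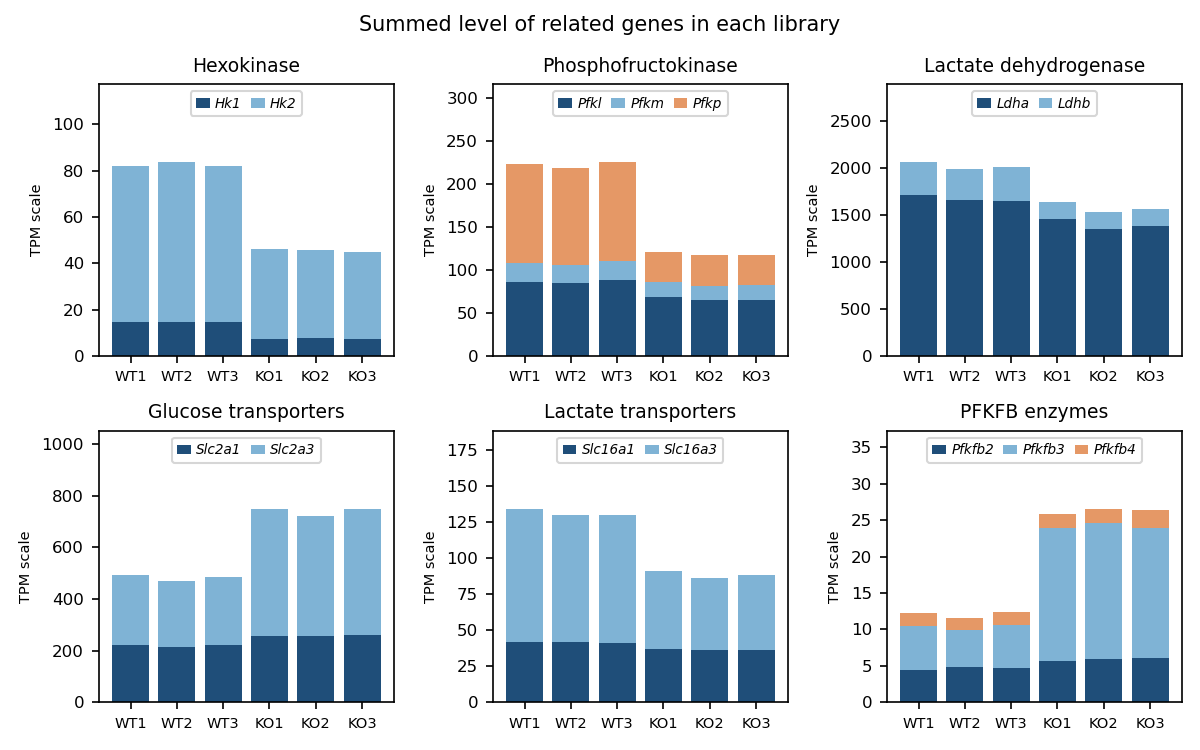
Summed level on the TPM scale (linear axis from 0) of related genes in each of the 3 WT (WT1 to WT3) and 3 knockout (KO1 to KO3) libraries, with one colour per gene. The hexokinase sum was 82.0 to 83.7 (WT) and 44.9 to 45.9 (knockout), and the glucose transporter sum 469 to 492 and 719 to 750.

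The PFKFB enzymes make and remove fructose 2,6-bisphosphate, the strongest activator of phosphofructokinase, and their genes moved in both directions: the 3 among the 41 genes rose, and Pfkfb1, outside them, fell. Pfkfb3, the form with the highest kinase activity (mm10 chromosome 2, 11471433 to 11554077), was at 5.93, 5.08 and 5.94 in WT and at 18.2, 18.7 and 17.8 in knockout libraries. Its log2 fold change of 1.74 ± 0.0614 (SE; limma, adjusted p = 1.55e-08) was the largest rise of the 41 genes. Pfkfb2 rose by 0.40, a call that was lost with chromosome centring (0.10), although the median log2 fold change of its chromosome, 1, was 0.07. Pfkfb4 was at 1.90, 1.58 and 1.84 in WT and at 1.935, 1.96 and 2.43 in knockout libraries, so the genotypes nearly touched. Its log2 fold change of 0.30 had an adjusted p of 0.048 (limma), and the call was lost in 10 of 16 alternatives. Among these were the fits without WT replicate 1 (0.0503), 2 (0.15) or 3 (0.0639) and without knockout replicate 2 (0.052) or 3 (0.177), and the highest adjusted p was 0.306, with equal totals. Pfkfb2, Pfkfb3 and Pfkfb4 summed to 12.1 ± 0.493 in WT and 26.3 ± 0.404 in the knockout (SD, n = 3). Pfkfb1, named here after its values were seen, was more abundant than each of them and fell from 22.7 ± 0.594 to 19.4 ± 0.399 (SD, n = 3), a difference of -0.16 on the log2 scale (limma, adjusted p = 0.00727).

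The main glucose transporter genes, Slc2a3 and Slc2a1, rose, and the lactate transporter genes Slc16a3 and Slc16a1 fell. Slc2a3, which encodes the high-affinity transporter GLUT3 (mm10 chromosome 6, 122727809 to 122801640), was at 271, 255 and 262 in WT and at 494, 463 and 484 in knockout libraries. Knockout and WT differed by 0.95 ± 0.0328 on the log2 scale (SE; limma, adjusted p = 1.33e-08), on a chromosome whose genes had a median of -0.29. Slc2a1, encoding the ubiquitous transporter GLUT1, was at 221, 213 and 223 in WT and at 256, 257 and 263 in knockout libraries (log2 fold change 0.31). It was not called with chromosome centring (0.08, limma, adjusted p = 0.0852), although the median log2 fold change of its chromosome, 4, was 0.07. Slc2a3 made up 54.5% ± 0.541 of the sum of both in WT and 65.0% ± 0.775 in the knockout (SD, n = 3). Slc16a3, the lactate exporter MCT4, was at 93.0, 88.5 and 88.9 in WT and at 54.3, 49.95 and 52.3 in knockout libraries (log2 fold change -0.72, SE 0.0372). Slc16a1, the transporter MCT1, fell by 0.14 (limma, adjusted p = 0.000809). The less abundant sugar transporter genes outside the 41 moved both ways. Slc2a8, Slc2a5 and Slc2a4 had log2 fold changes of -0.96, -2.097 and -0.60 and were lower, Slc2a4 not with chromosome centring. Slc2a9, Slc2a10, Slc2a12 and Slc2a13, each at under 1 on the TPM scale, were higher, Slc2a12 not with equal totals. Apart from Slc2a8, these were named after their values were seen.

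The HIF alpha subunit genes moved in opposite directions. Hif1a was at 42.7, 43.4 and 42.6 in WT and at 53.2, 54.3 and 54.0 in knockout libraries (0.38 ± 0.026 on the log2 scale, SE; limma, adjusted p = 1.22e-06). Epas1, which encodes HIF2-alpha, was at 4.67, 5.19 and 5.07 in WT and at 2.05, 2.16 and 1.94 in knockout libraries (-1.23 ± 0.0634 on the log2 scale, SE; limma, adjusted p = 1.95e-07). No library of one genotype reached the range of the other for either gene. HIF alpha subunits are controlled mainly through protein stability, which RNA levels do not measure. Egln3, a prolyl hydroxylase that is itself a HIF target, was at 14.6, 13.4 and 14.5 in WT and at 4.83, 4.61 and 4.502 in knockout libraries (-1.55 ± 0.0477 on the log2 scale, SE; limma, adjusted p = 6.78e-09). Egln1, the main oxygen-sensing hydroxylase, fell from 8.96 ± 0.116 to 6.90 ± 0.184 (SD, n = 3; log2 fold change -0.33). It lies on chromosome 8, and its log2 fold change became 0.05 and was not called after chromosome centring.

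Among mitochondrial hypoxia targets, Bnip3 and its close relative Bnip3l went opposite ways. Bnip3, a receptor for the removal of mitochondria by autophagy, was at 133, 127 and 124 in WT and at 52.6, 50.7 and 50.02 in knockout libraries. Knockout and WT differed by -1.22 ± 0.0355 on the log2 scale (SE; limma, adjusted p = 4.69e-09). Bnip3l, also called NIX and a receptor of the same kind, was at 145, 147 and 156 in WT and at 188, 182 and 183 in knockout libraries, a log2 fold change of 0.39 (SE 0.0387). The Bnip3l call was lost with chromosome centring (0.09, limma, adjusted p = 0.0824), although the median log2 fold change of its chromosome, 14, was 0.09. The Bnip3 stretch above held the most HIF cores of those shown, counting both strands, and a relation between cores and falls was not tested. Higd1a, a mitochondrial inner membrane protein, was at 106 ± 2.59 and 111 ± 2.13 (SD, n = 3) with a log2 fold change of 0.14, which turned to -0.02 with equal totals.

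Of the other 8 hypoxia targets, 7 were lower (87.5%), none was higher and P4ha2 was not called. The shares over all genes tested were 28.9% lower and 33.6% higher. Ankrd37, a small ankyrin repeat protein gene, was at 30.3, 35.0 and 32.2 in WT and at 7.60, 8.85 and 8.81 in knockout libraries. Its log2 fold change of -1.87 ± 0.077 (SE; limma, adjusted p = 4.22e-08) was the largest fall of the 41 genes and remained -1.495 after chromosome centring. Ankrd37 overlaps Ufsp2 on the opposite strand, which had a log2 fold change of -0.13. The library kit marked strand, but whether quantification used it is unknown here. Vegfa, the growth factor of blood vessels, was at 33.7, 31.8 and 31.4 in WT and at 17.1, 18.8 and 18.4 in knockout libraries (log2 fold change -0.77, SE 0.0489). Ndrg1, a stress-response gene, was at 8.93, 8.90 and 9.04 in WT and at 4.80, 4.67 and 4.74 in knockout libraries (log2 fold change -0.83, SE 0.0776). In each of these genes the libraries of a genotype lay close together and far from the other genotype.

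The remaining targets fell by less than 1.5 fold. The histone demethylase gene Kdm3a fell by 0.47 on the log2 scale, and Mxi1, a MAX-binding antagonist of MYC, by 0.44. Ero1l, an oxidase for protein folding in the endoplasmic reticulum, fell by 0.35 and P4ha1, a collagen prolyl hydroxylase subunit, by 0.14. P4ha2, the related subunit, was at 17.1, 14.9 and 14.5 in WT and at 13.97, 14.4 and 13.5 in knockout libraries, a difference of -0.07 on the log2 scale (limma, adjusted p = 0.362). It was called lower with equal totals (-0.23) and higher with chromosome centring (0.29).

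**Figure D3:**
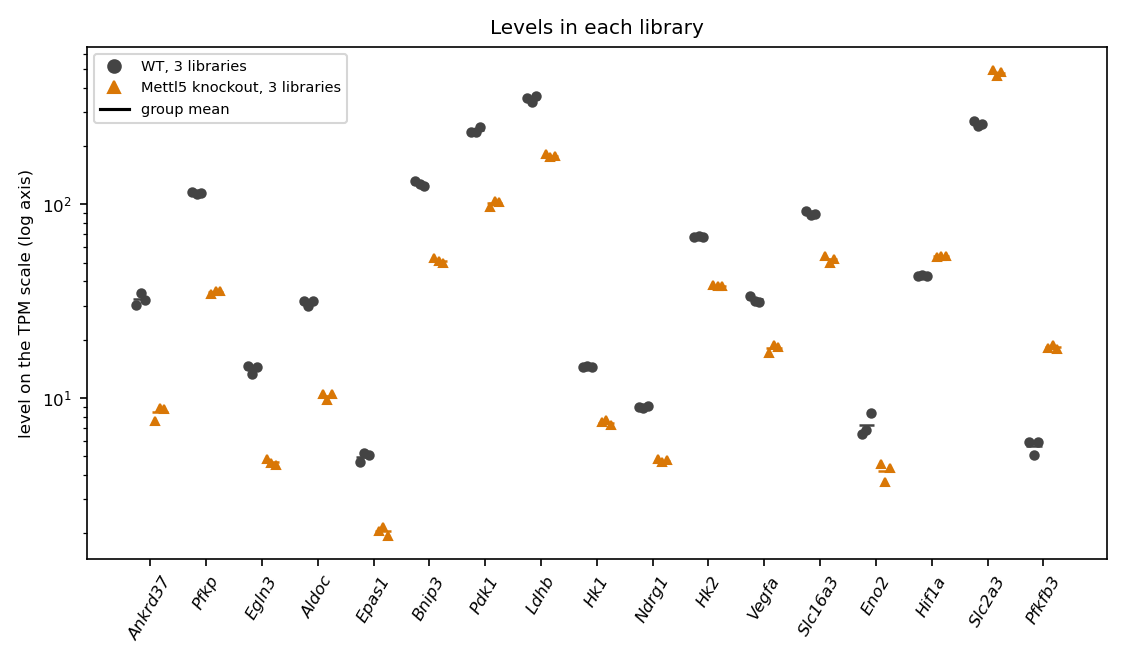
Level on the TPM scale (log axis) in each WT (circles) and knockout (triangles) library, with group means as lines, for the 16 genes called with a log2 fold change of at least 0.5 in size and for Hif1a. The WT and knockout points do not overlap for any gene shown, with Pfkp at 113 to 116 (WT) and 34.3 to 35.7 (knockout).

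Of the 41 genes, 13 lie on chromosomes 6, 8 and 11, whose genes had negative medians over the whole chromosome (-0.29, -0.38 and -0.41), where other chromosomes were at -0.02 to 0.21. Of these 13, 10 were lower (76.9%) and 1, Slc2a3, was higher (7.69%), where 53.3% of all tested genes on these chromosomes were lower and 16.1% higher. By the test against 1.5 fold 5 were lower (38.5%) and 1 was higher, against 18.5% and 6.43%. Among the 28 members on other chromosomes, 17 were lower and 10 higher (60.7% and 35.7%), where 23.8% and 37.3% of all tested genes there were. By the test against 1.5 fold, 8 of these 28 were lower (28.6%) against 7.01%, and 1 was higher (3.57%) against 13.0%. After values were centred per chromosome, 26 of the 41 genes were lower and 8 higher (33.9% and 27.1% of all genes), with a median of -0.30. Centring used each library's median log2 level per chromosome, not the median fold change. It moved the median of all genes from 0.00 to -0.10. These counts therefore do not measure departures from the chromosome medians given above. Hk2, Ldhb, Ankrd37, Aldoc and Slc16a3, which lie on the 3 chromosomes and passed the test against 1.5 fold, were at -0.52, -0.64, -1.495, -1.16 and -0.36 after centring. Slc2a3, at 0.95, was at 1.22 after centring.

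**Figure D4:**
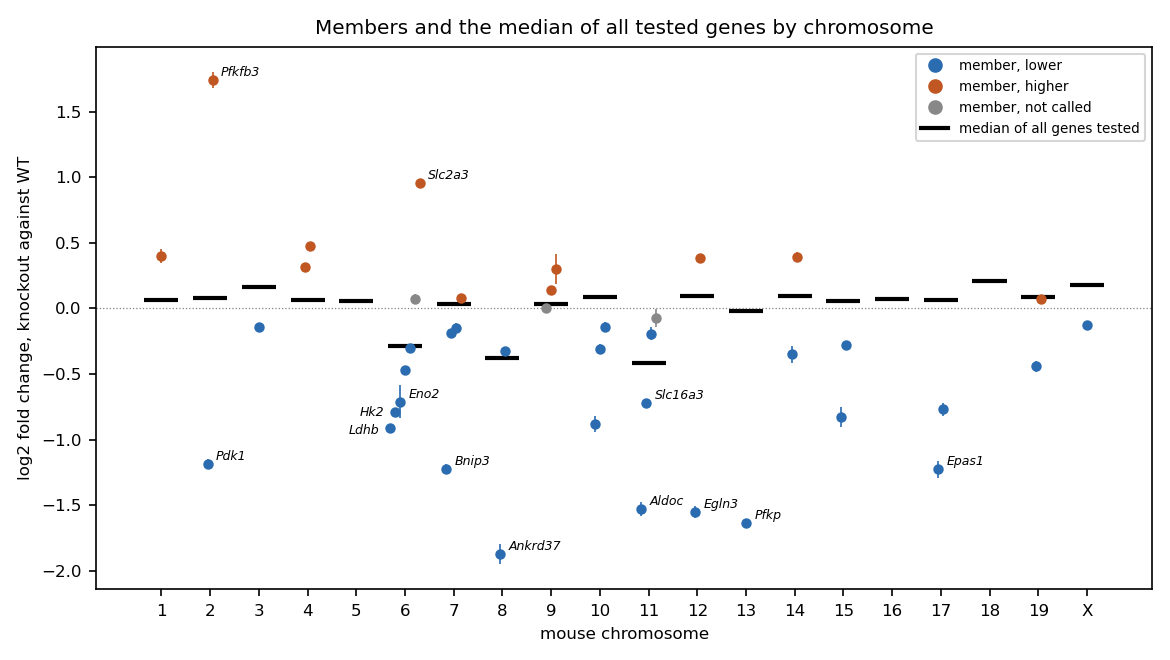
Log2 fold change of each of the 41 genes (points with SE) by chromosome, with the median of all tested genes of that chromosome as a black line. The medians of chromosomes 6, 8 and 11 are -0.29, -0.38 and -0.41, and Pfkp, Egln3, Bnip3, Pdk1 and Epas1, each below -1.1, lie on other chromosomes.

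Of 15 further genes of the HIF pathway, 5 were lower (33.3%) and 7 higher (46.7%), shares near those of all genes with a mean of at least 5 on the TPM scale (31.6% and 46.4%). Their median was 0.11, and -0.05 with equal totals. Arnt, the shared HIF partner, fell from 34.4 ± 0.249 to 23.9 ± 0.169 (SD, n = 3; log2 fold change -0.48). Vhl, the subunit that recognises hydroxylated HIF, and Siah1a, a ligase that degrades EGLN enzymes, had log2 fold changes of -0.35 and -0.37, and neither was called after chromosome centring. Cited2, which competes with HIF1A for the coactivators p300 and CBP, rose from 11.1 ± 0.146 to 59.7 ± 1.96 (SD, n = 3; log2 fold change 2.48, SE 0.033, limma, adjusted p = 4.17e-11). Elob and Rbx1, subunits of the VHL ligase, rose by 0.67 and 0.50.

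Of 38 hypoxia targets outside the 41 genes, 19 were lower and 11 higher, with a median of -0.22. Of all genes tested, 28.9% were lower and 33.6% higher. By the test against 1.5 fold 7 were lower (18.4%) and 3 higher (7.89%), against 9.01% and 11.9% of all genes tested. Ndufa4l2, a mitochondrial protein gene of the HIF response, fell from 11.2 ± 0.56 to 1.22 ± 0.204 (SD, n = 3; log2 fold change -3.12, SE 0.12). Cox4i2, the hypoxic isoform of a cytochrome oxidase subunit, fell by 2.38, and the mitochondrial adenylate kinase gene Ak4 by 1.22. Others rose: Pgf, a growth factor related to VEGFA, from 0.912 ± 0.0495 to 8.24 ± 0.285 (SD, n = 3; log2 fold change 3.21), the transcription repressor gene Bhlhe40 by 1.56 and the glycogen branching enzyme gene Gbe1 by 1.35. Ndufa4l2, Cox4i2 and Ak4 thus fell with Ankrd37 and Egln3, while Pgf rose as Vegfa fell.

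Among 15 other isoenzymes of glycolysis, 8 were lower (53.3%) and 3 higher (median -0.36). As a background for these and for the transporters below, 28.9% of all genes tested were lower and 33.6% higher. Pgam2, the muscle mutase, fell by 1.55, the ADP-dependent glucokinase gene Adpgk by 0.60 and the red cell enzyme gene Bpgm by 0.27, the last not called after chromosome centring. The higher ones were Eno1b (0.49), Pgam5 (0.18) and Minpp1 (0.13). After chromosome centring Eno1b was called lower (-0.12), and Pgam5 and Minpp1 were not called. Of 13 other sugar and lactate transporter genes, 3 were lower (23.1%) and 7 higher (53.8%), most of the latter at under 1 on the TPM scale. Emb, an accessory protein of monocarboxylate transporters, rose from 44.1 ± 1.35 to 78.3 ± 1.75 (SD, n = 3), Bsg, its relative, had a log2 fold change of 0.12 that was not called with equal totals, and Slc2a8 was among the 3 that fell.

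The lists of neighbouring pathways are short and were mixed. For comparison, 28.9% of all genes tested were lower and 33.6% higher, or 37.8% and 26.1% with equal totals. In the pentose phosphate pathway 1 of 7 genes was lower and 4 were higher (2 and 2 with equal totals): Pgls, on chromosome 8, fell by 0.78, while Rpe rose by 0.74 and G6pdx, the entry enzyme, by 0.50. For pyruvate entry to mitochondria 7 of 14 were lower and 2 higher. The pyruvate carboxylase gene Pcx fell by 0.87 and the pyruvate dehydrogenase phosphatase genes Pdp2 and Pdp1 by 0.63 and 0.58, while Pdha1, a pyruvate dehydrogenase subunit, rose by 0.51. Of 16 tricarboxylic acid cycle genes 7 were lower and 7 higher (9 and 3 with equal totals), with Suclg2 (-0.63), Suclg1 (-0.46) and Ogdh (-0.38) on chromosomes 6 and 11, among the lower ones, and Idh3b (0.50), Sdhd (0.31) and Cs (0.29) among the higher. Ogdh was not called after chromosome centring. Of 4 gluconeogenesis genes found, 2 were lower, G6pc3 by 1.07 and Pck2 by 0.59, and Fbp2, at 0.902 and 1.27 and so below the level used for naming, was higher (not with equal totals).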

How the data were processed

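The submitters' processing notes name kallisto, sleuth and mm10. Their versions, annotation, filters and use of strand are unknown here. The deposited table has, per the file headers, scaled reads and TPM for each gene, and both were treated as signal rather than as raw counts or plain TPM. Library sums of scaled reads were 46077000 to 46541000 (WT) and 51500000 to 51830000 (knockout), and those of the TPM signal 969838 to 978167 and 1019930 to 1022470. Depth was estimated from the smallest step between low scaled reads in a library. Of values from 0.5 to 40, 29.7% to 32.8% fell at most 0.02 from a whole multiple of that step, against a median of 3.29% to 3.51% over all steps tried.

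The test was limma 3.58.1 in R 4.3.3 on log2(scaled reads + 1), with the prior variance following intensity, and limma's treat for changes above 1.5 fold. Python 3.11.15, pandas 2.3.3, numpy 2.4.6 and matplotlib 3.10.9 were used, with symbols and coordinates from GENCODE M21 (GRCm38). The fit was tested on simulated data. No 2 replicates agreed within counting noise (chi-square per degree of freedom 3.16 to 7.8), so all were kept. Replicate numbers were not used as a block. The genes and lists were chosen with earlier results of these data known. Values in every library are given for genes called with a log2 fold change of at least 0.5 in size, for the HIF alpha genes and for the main isoenzyme of each step. Of other lists, up to 3 called genes per direction with a level of at least 5 are named. Other genes shown were chosen after their values were seen. Alternatives were other scalings, pseudocounts of 0.1 and 5, no filter or a mean of 10, the TPM column (pseudocount 0.1), chromosome centring, no intensity trend, a replicate block, and leaving out each library.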

Additional observations from a re-analysis of the deposited data

How the results depend on the processing

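Of the 38 genes called among the 41, 22 lower and 4 higher ones (Eno1, Pfkfb3, Slc2a3 and Hif1a) kept their direction and call in all 16 alternatives. The number lower by more than 1.5 fold was 10 to 13 and the number higher 2 throughout. The number of higher genes went from 11 to 7 with equal totals and to 7 with the TPM column. The median, -0.28, became -0.44 with equal totals and -0.33 with the TPM column, and without single libraries it was -0.31 to -0.26 (8 to 10 higher genes, 27 lower). Changes of direction were limited to small values. With equal totals Aldoa was at -0.077, Gapdh at -0.085, Pgam1 at -0.083, Pkm at -0.15 and Higd1a at -0.018. With median-of-ratios scaling Pkm was at -0.017, and with the TPM column Gapdh was at -0.014 and Pkm at -0.069. With chromosome centring Aldoa was at -0.13, Pgam1 at -0.15, Eno3 at 0.18, Pkm at -0.015, Egln1 at 0.052 and P4ha2 at 0.29. That centring moved the median of all genes tested to -0.10. Without single libraries Pkm ranged from -0.024 (WT replicate 2 left out) to 0.0199 (WT replicate 3), with -0.0008 for knockout replicate 1. The cause was not tested. With the replicate number as a block, 27 genes were lower and 11 higher, 12 lower and 2 higher by more than 1.5 fold, with a median of -0.28. Deviations of same-numbered libraries correlated at 0.114, 0.0786 and 0.132 over 13447 genes. Each library correlated best with its own number, but 1 pair was under 0.1, so the numbers were not taken as pairs. The deposited values are rescaled estimates, so no counting interval can be given, and with 3 libraries per genotype small changes such as those of Aldoa, Pgam1 and Pfkfb4 depend on single libraries.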
